A study of Mus musculus with 33 samples.

Results

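Late anagen of a hair growth cycle started by depilation was compared with late anagen of the natural second cycle in mouse dorsal skin. The depilated side held the 4 arrays whose titles name D8 or D12, which are 8 and 12 days after the hair was pulled out, and the natural side held the 3 arrays whose titles name P29, postnatal day 29. These are 7 of the 33 arrays of the series, and every gene on the array was described across them. Each array carried RNA of whole skin from 1 mouse, cut from the upper middle of the back.

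All mice were wild-type C57BL/6. The depilated mice had been waxed with a rosin mixture at 7 weeks of age, when their follicles rested, and their labels give an age of at least postnatal day 50. All 4 were female. Of the natural mice, which were not depilated, replicate 1 was male and replicates 2 and 3 were female. The age, the cycle and the treatment therefore differ together between the groups and cannot be told apart, and the sources used here do not say whether the arrays of both cycles were processed together. The design text of the series places D8, D12 and P29 in late anagen, while the phase words in the sample labels of D8 and D12 say early anagen, so the days in the titles were used.

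Hair follicles of the mouse back alternate between anagen, in which the hair grows, catagen, in which the lower follicle regresses, and telogen, in which it rests. In full growth the matrix cells at the follicle base divide, and their progeny fill with hair keratins and keratin-associated proteins to form the shaft, inside a sheath of several layers that guides it. Pulling hairs from resting skin starts anagen in all follicles of the area and also wounds the follicle and the epidermis above it.

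Values are signals of the array, a linear brightness without unit that the authors computed per probe set, a set of short probes for 1 transcript. Below, the signals of a gene are given in the order D8 replicates 1 and 2, D12 replicates 1 and 2, and P29 replicates 1, 2 and 3. A log2 difference is the mean of D8 and D12 minus P29, so that a positive value is higher after depilation, and ± is its standard error. A gene is said to have risen or fallen where a limma linear model of all 33 arrays gave an adjusted p under 0.05 over the 26988 probe sets that passed a filter on dim signals. Signals under the floor of 34.6 had been set to that floor, and such signals have no order among themselves. Each of 12867 genes was represented by 1 probe set. The small number of arrays limits the precision of every value.

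Arrays of the same time point correlated with r between 0.965 and 0.979 over these probe sets, D8 with P29 between 0.9 and 0.913, and D12 with P29 between 0.934 and 0.949. The depilated arrays had median signals of 112 to 122.6 and the natural arrays of 130.3 to 135.5. One array stands apart before any result. D12 replicate 2 resembled D17 replicate 1, an early catagen array, more than any other 2 arrays of the series resembled each other (r 0.984, the highest of 528 pairs). Over the brighter probe sets only, their log2 signals differed with an SD of 0.156, while arrays of 1 time point differed with SDs of 0.235 to 0.619. Counts are therefore also given without both arrays. The phase was checked against hair shaft and mitotic genes, and D8 stood nearer to mid anagen than to P29. The summed signal of the hair shaft genes was 153215 to 218110 at D8, 412614 to 462385 at D12 and 518849 to 626576 at P29, all above the 4434 to 11671 of the 3 telogen arrays (P44). The arrays of mid anagen (P27) spread widely, with 375363 and 406436 at replicates 1 and 2 and 77089 at replicate 3. Both D8 sums lay between that of replicate 3 and those of replicates 1 and 2. Mitotic genes summed to 70444 to 72035 at D8, above the 63118 to 69848 of P27, and to 37034 to 50750 at D12, where P29 had 45193 to 47897.

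Across all genes, 2500 of 12867 passed the test (19.4%), 1394 of them higher (10.8%) and 1106 lower (8.6%) after depilation. Over probe sets the balance was the other way. Of 26988 probe sets 7141 passed (26.5%), 2849 higher (10.6%) and 4292 lower (15.9%), a share of 39.9% higher among those that passed. That share was 48.1% after quantile normalization and 63.8% when each array was centred on its median, which moved the median log2 difference of all probe sets from -0.037 to 0.125. With mid anagen (P27) in place of P29 it was 28.6%. Without D12 replicate 2 and D17 replicate 1 the count was 4895. The groups did not overlap in 3314 genes (25.8%), and 1994 of the 2500 genes that passed were among them.

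The days differed in how far they lay from P29. At D8, 8081 probe sets passed (29.9%), and 3158 genes (24.5%). At D12, 2708 probe sets passed (10%), and 703 genes (5.46%), with 3.23% of probe sets higher and 6.8% lower. Both comparisons share the 3 P29 arrays. Without D12 replicate 2 the count at D12 fell to 1032 probe sets, 179 of them higher where 873 had been. Between D12 and D8 themselves, 650 probe sets passed (2.41%) and 262 genes (2.04%). Higher at D12 were 1.72% of probe sets and 1.27% of genes, and lower were 0.689% and 0.762%, but without D12 replicate 1 only 38 probe sets did and without D8 replicate 1 65. Among the means of the natural time points, the mean of P27 lay nearest to both D8 arrays (r 0.937 and 0.95), where P29 had r 0.915 and 0.92. The nearest for D12 replicate 1 was P39 (0.96, with P29 at 0.958) and for D12 replicate 2 P37 (0.956, with P29 at 0.945).

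**Figure D1:**
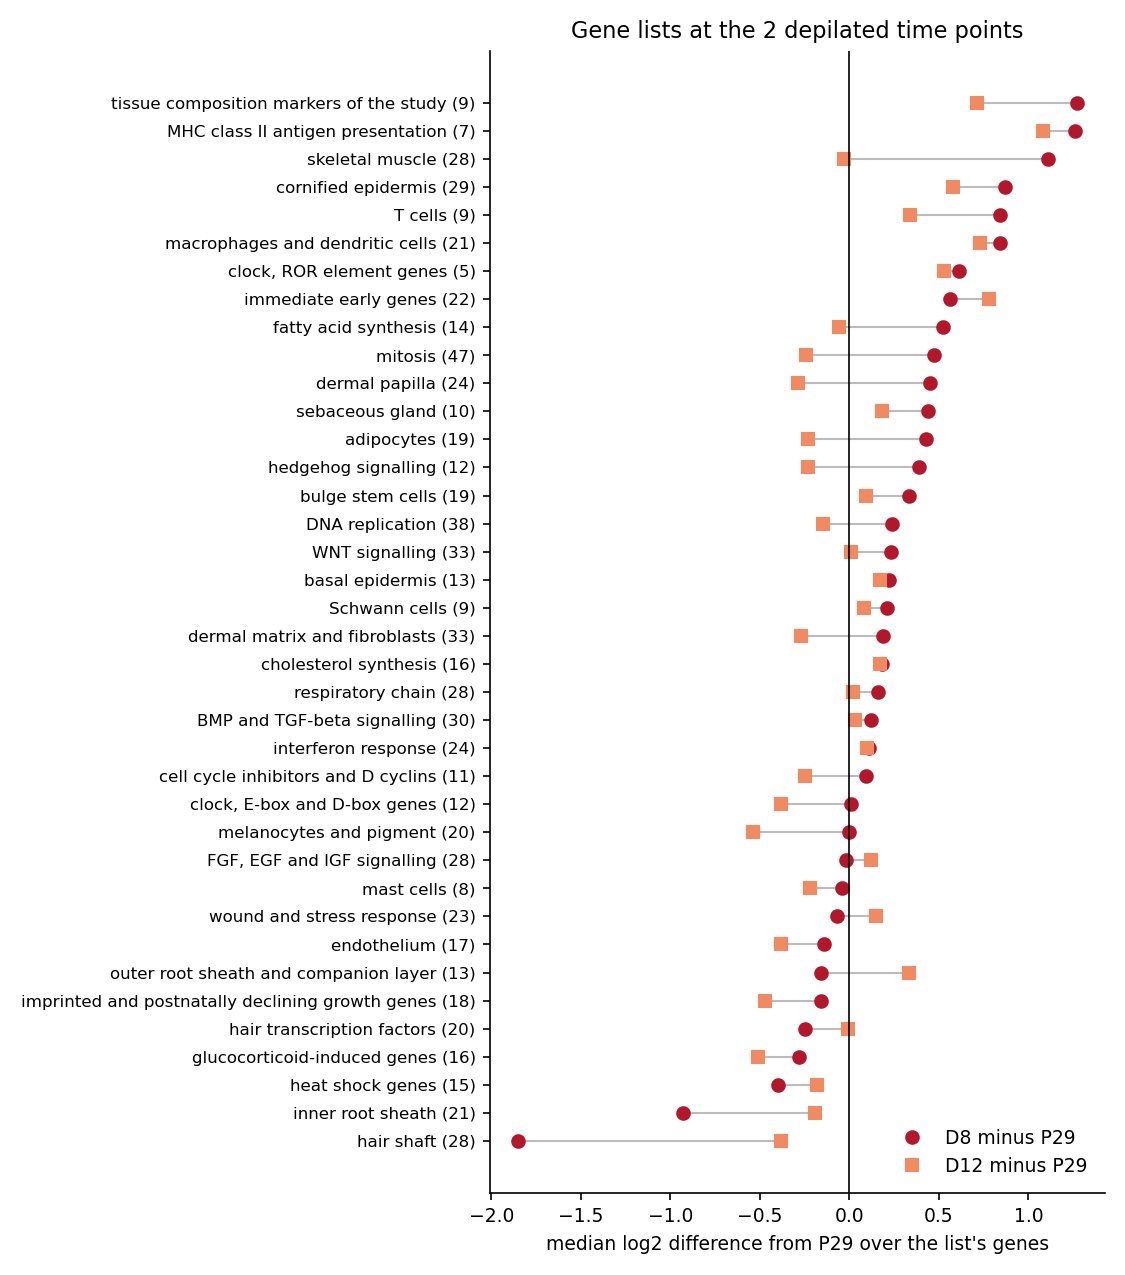
Median log2 difference from P29 of each gene list with at least 5 measured genes, at D8 (circles) and at D12 (squares), with the number of genes in parentheses. Hair shaft genes lie lowest at D8 (-1.85) and near 0 at D12 (-0.38), while the immediate early genes lie above 0 on both days (0.56 and 0.78).

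The epidermal barrier genes were the first group that stood higher after depilation. Of 29 measured genes of the cornified epidermis, the dead outer layer and the cells that build it, 14 rose and 1 fell, where 10.8% and 8.6% of all genes did, with a median log2 difference of 0.83 against 0.029 over all genes. At D8 15 rose and 1 fell (13.8% and 10.8% of all genes), and at D12 4 rose (2.77% of all genes). Without D12 replicate 2 and D17 replicate 1, 10 rose. With P27 in place of P29, 4 did. The summed signal of the list was 284654 to 323085 at D8, 219500 to 288425 at D12 and 151556 to 169803 at P29. The 3 telogen arrays, at 301313 to 368506, overlapped D8.

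The largest rises of the list were in the Lce1 family, late cornified envelope proteins that are cross-linked into the shell of the outermost keratinocytes. Of 11 measured Lce1 genes 10 rose, with a median of 2.74 and a range of 0.83 to 3.26. Lce1d had signals of 11967.7 and 10300.5 at D8, 3151.5 and 5506.4 at D12, and 748.1, 859.3 and 853.8 at P29. Every depilated array was above every natural one, with D8 above D12. The difference was 3.05 ± 0.27, an 8.31-fold higher signal (limma adjusted p = 2.15e-07), and D12 lay below D8 by a log2 difference of -1.41 (adjusted p = 0.0351). Lce1f had 15857.4 and 14112.6, then 3503.4 and 6600.8, against 871.6, 941.9 and 971.1. Its groups did not overlap either, and a second probe set of the gene gave 2.67 ± 0.55 beside 3.19 ± 0.37 for the first. Lce1l (3.26 ± 0.38), Lce1c (3.19 ± 0.37) and Lce1i (2.82 ± 0.31) followed. At D8 all 11 family members rose (median 3.52) and at D12 9 did (median 2.11). The exception of the joint comparison was Lce1g at 0.83 ± 0.38 (adjusted p = 0.114), with signals of 31.6 to 148.8. These genes are alike in sequence, and 5 of the 11 rest on probe sets that can bind several transcripts, so that single members may not be resolved.

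The stretch of genome around the start of Lce1d shows a TATA box, the letters TATAAA that place the transcription machinery, in capitals. It runs from 250 bases before to 50 bases after the start in the RefSeq annotation (GRCm38.p6, chr3:92687161-92687460, minus strand, written 5′ to 3′ along the gene).
Lce1d: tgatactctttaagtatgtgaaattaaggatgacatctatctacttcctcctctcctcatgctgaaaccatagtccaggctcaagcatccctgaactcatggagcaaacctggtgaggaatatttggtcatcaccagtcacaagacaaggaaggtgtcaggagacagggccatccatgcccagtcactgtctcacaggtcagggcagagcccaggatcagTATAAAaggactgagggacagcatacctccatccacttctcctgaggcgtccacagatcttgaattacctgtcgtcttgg
The letters TATAAA, searched on both strands, were present in 2 of 9 Lce1 genes that rose and have a promoter in the table (Lce1d and Lce1m), and in 13.6% of all 32851 promoters.

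Other barrier genes rose by less. Krt1, a keratin of the cells just above the basal layer, had 18389.8 and 14498 at D8, 7489.7 and 11609.3 at D12, and 3600, 3011.7 and 2716 at P29. The groups did not overlap and the difference was 2.00 ± 0.43 (limma adjusted p = 0.00171). Its partner Krt10 was also higher on all 4 depilated arrays (27043.4 to 33079.9 against 16376.7 to 16734.7) but did not pass (0.83 ± 0.35, adjusted p = 0.0833). Lor, which encodes loricrin of the cornified envelope, rose by 1.36 ± 0.33, the lipoxygenase gene Alox12b by 2.52 ± 0.60, and Calm4, a calcium-binding protein, by 1.40 ± 0.34. Hrnr, which encodes a relative of filaggrin, rose by 2.30 ± 0.60. For Flg, filaggrin itself, the rise of 1.86 ± 0.52 (adjusted p = 0.0104) was lost without P29 replicate 3 (1.59, adjusted p = 0.062).

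The gene that fell was Tgm3, a transglutaminase of the hair and its inner root sheath as well as of the epidermis. It had 674.3 and 560.2 at D8, 3458.1 and 1330.8 at D12, and 4063.4, 4390.3 and 3910.7 at P29. Both D8 arrays were far below the others, and the difference was -1.84 ± 0.47, but 0.49 with P27 in place of P29. Of 13 genes of the basal epidermis 4 rose and 1 fell (median 0.20), where 10.8% and 8.6% of all genes did. Only 2 rose without D12 replicate 2, and also only 2 without either D8 array or any 1 of the P29 arrays. Itga6 (0.60 ± 0.14) and Col17a1 (0.96 ± 0.23), parts of the hemidesmosome that anchors basal cells, rose. Itgb1, the integrin chain of focal contacts, fell by 0.78 on the log2 scale, with 1430.4 and 1608.9 at D8, 2364.1 and 1943.3 at D12, and 3132.4, 2674.4 and 3542.8 at P29. The protease inhibitor gene Stfa3 rose most of all genes (3.95 ± 0.59, limma adjusted p = 6.36e-05). Its signals were 9358.8 and 6283.6 at D8, 479.6 and 891.2 at D12, and 257.9, 143.1 and 83.2 at P29, so that D8 stood far above D12 (D12 minus D8 -3.55, adjusted p = 0.0192). At D12 alone it did not pass (2.17, adjusted p = 0.0548).

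**Figure D2:**
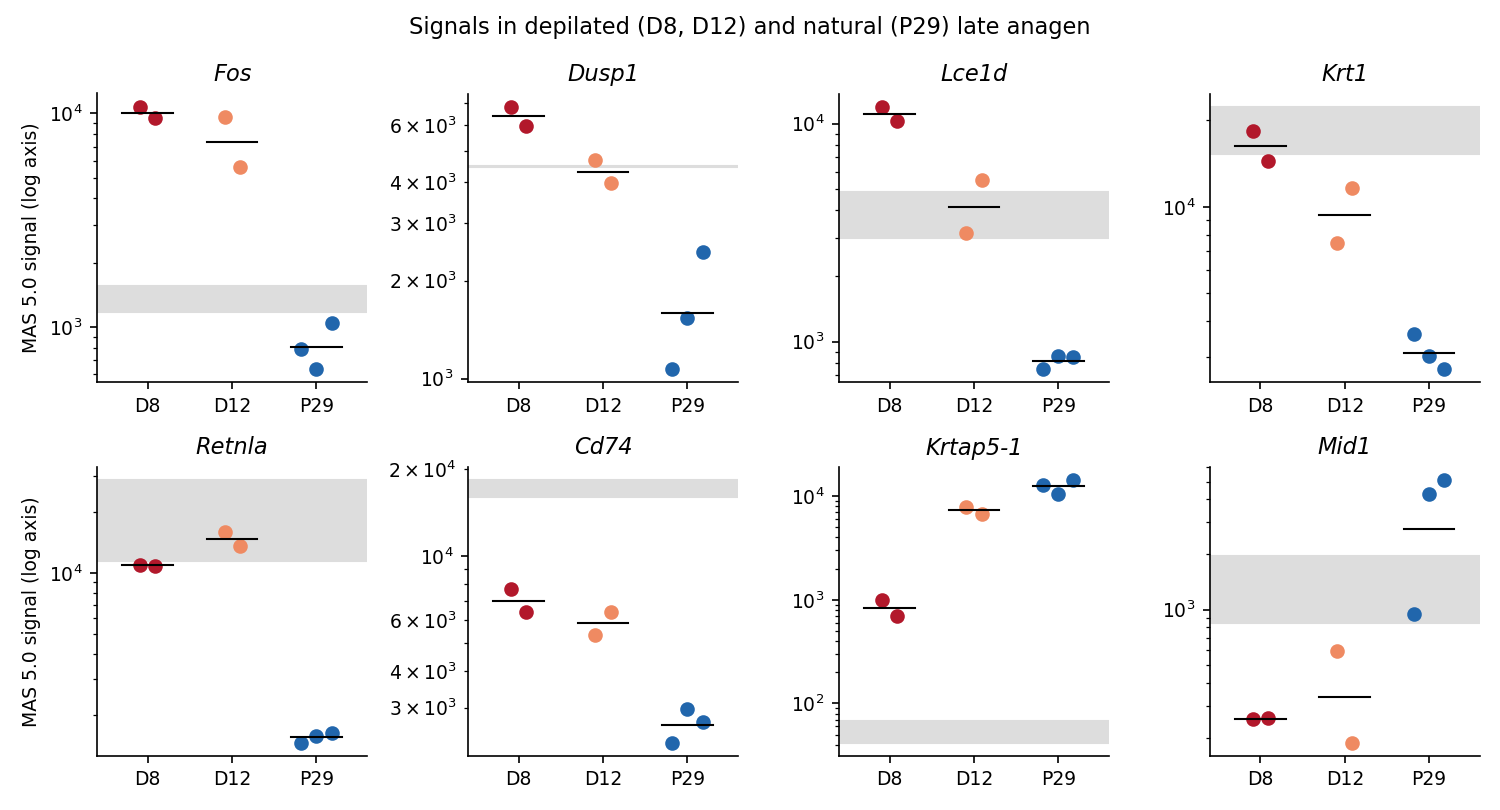
Signal on each of the 7 arrays (log axis, 1 dot an array) for 8 genes at D8, D12 and P29, with the geometric mean of each group as a black line and the range of the 3 telogen arrays (P44) as a grey band. Fos lies between 5622.3 and 10766.4 after depilation and between 635.8 and 1044.1 at P29, with the depilated arrays above the telogen band. Retnla after depilation lies within or just below its band and Cd74 below it.

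Immediate early genes, which cells switch on within minutes of a stimulus without new protein, were the second group. Of 22 measured 12 rose and none fell, where 10.8% and 8.6% of all genes did, with a median of 0.64. They rose on each day, with 9 up at D8 (median 0.56) and 11 up at D12 (median 0.78), where 13.8% and 2.77% of all genes rose. With any 1 array left out 9 to 12 rose, with D12 replicate 2 and D17 replicate 1 left out 11, and with P27 in place of P29 13 rose and 1 fell. The summed signal was 74538 to 81109 at D8, 72057 to 75409 at D12 and 38836 to 43202 at P29. Telogen skin, at 43768 to 46674, lay far below the depilated arrays, unlike for the barrier genes.

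Fos, the partner of Jun in the AP-1 factor, had signals of 10766.4 and 9479.3 at D8, 9636.7 and 5622.3 at D12, and 788, 635.8 and 1044.1 at P29. Every depilated array was above every natural one of the whole series, whose highest was 2648.4. The difference was 3.42 ± 0.46, or 10.7-fold (limma adjusted p = 1.68e-05). Fosb, of the same family, had 358.3, 444.5, 314.1 and 242.6 against 47.8, 7.4 and 93.2, with 1 natural array under the floor (2.63 ± 0.45). Dusp1, a phosphatase that switches off MAP kinases, had 6838.2 and 5964.6 at D8, 4675.8 and 3989.5 at D12, and 1069.9, 1537.9 and 2441 at P29. The groups did not overlap (1.72 ± 0.31, adjusted p = 0.000298). Egr1, a zinc finger factor, had 11578.2, 9755.8, 9403.5 and 9686.1 against 4353.8, 5091 and 3941.8, and D17 stood as high, at 10220 to 10330. The difference was 1.18 ± 0.23.

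The rest of the list was described after its values were seen. The stress factor Atf3 rose by 1.48 ± 0.32, the nuclear receptor Nr4a1 by 1.32 ± 0.27, the matrix protein Ccn1 by 1.31 ± 0.27, the AP-1 member Jund by 0.84 ± 0.17 and Klf4, a factor of epidermal differentiation, by 0.79 ± 0.18. The calls of Egr2 (0.71 ± 0.20), Ier3 (0.68 ± 0.20) and Jun (0.59 ± 0.21) depended on single arrays. That of Egr2 was lost without P29 replicate 3 (0.65, adjusted p = 0.0512), and that of Ier3 without P29 replicate 3 (0.62, adjusted p = 0.0685) or D8 replicate 1 (0.64, adjusted p = 0.0519). Jun lost its call without any 1 array other than P29 replicate 2, at 0.47 (adjusted p = 0.163) to 0.63 (adjusted p = 0.0658). How long each skin sample waited between excision and lysis is not given in the sources used here, and its part in these levels was not tested.

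The same stretch of the Fos gene is shown for comparison with the other members, again with TATAAA in capitals (GRCm38.p6, chr12:85473640-85473939, plus strand).
Fos: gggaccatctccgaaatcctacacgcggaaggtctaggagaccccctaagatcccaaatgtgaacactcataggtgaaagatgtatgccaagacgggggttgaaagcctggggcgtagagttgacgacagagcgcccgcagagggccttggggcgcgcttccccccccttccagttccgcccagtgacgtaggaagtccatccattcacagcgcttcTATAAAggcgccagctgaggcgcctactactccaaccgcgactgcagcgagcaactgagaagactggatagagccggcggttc
Of the 11 immediate early genes that rose and have a promoter in the table, 2 held TATAAA (Fos and Ccn1). The cyclic AMP response element TGACGTCA was in 1 (Dusp1) and in 1.79% of all promoters, and the CArG box, bound by serum response factor, was in 1 (Egr2) and in 1.63%. The letters TGANTCA, with any base at N and so wider than the AP-1 element they include, were in 0 of the 11 and in 7.81% of all. Elements outside this window were not searched. The E-box letters CACGTG were in 3 (Egr2, Dusp1 and Klf4) and in 7.15% of all. Of the 9 Lce1 promoters 0 held any of these 4 motifs. Both strands were searched, and a match to TGACGTCA is not one to TGANTCA.

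The third group held genes known from antigen-presenting cells and macrophages, whose source in whole skin was not tested. Of 7 measured genes of MHC class II antigen presentation, by which dendritic cells and macrophages show peptides to T cells, 6 rose (median 1.17). Of all genes 10.8% did. At D8 4 rose and at D12 2, where 13.8% and 2.77% of all genes did, with medians of 1.26 and 1.08. Without any 1 array 4 or 5 rose, and without D12 replicate 2 and D17 replicate 1 4 did. The summed signal was 19418 to 24302 at D8, 17891 to 20410 at D12 and 7688 to 10399 at P29, and telogen lay higher still at 48680 to 67778. In bulk skin, more cells of a type and more RNA in each of them cannot be told apart.

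Cd74, the chaperone of class II molecules, had 7705.7 and 6401.5 at D8, 5329.9 and 6436.2 at D12, and 2275.5, 2962.1 and 2670.7 at P29. The groups did not overlap (1.29 ± 0.31, limma adjusted p = 0.00412). H2-Eb1 (1.31 ± 0.31) and H2-Aa (1.25 ± 0.26), which encode class II chains, rose alike, and H2-DMa, which loads peptides, rose by 1.17 ± 0.29. For H2-Aa all 4 probe sets rose. This group had not been higher than in the natural cycle at the start. Its summed signal was 16620 to 30302 at D3, 20479 to 21644 at P23 and 18224 to 29559 at P25. The natural arrays were thus lower at P29 than at P23 and P25, while D8 and D12 lay inside the D3 range. At early anagen, with D3 against P23 and P25, 0 of 7 passed, where 42.7% of all genes did, and the median was -0.06, and the difference between late and early anagen itself passed for Cd74 (1.58 ± 0.47), H2-Eb1 (1.38) and H2-Aa (1.11).

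Of 21 genes of macrophages and dendritic cells 6 rose and none fell, where 10.8% and 8.6% of all genes did, with a median of 0.80. The count was 3 without D8 replicate 1 or P29 replicate 3, and 4 without D12 replicate 2 and D17 replicate 1. Summed signals were 35974 to 43729 at D8, 41115 to 46172 at D12 and 15006 to 20439 at P29, against 83188 to 139538 in telogen. At early anagen they were 19746 to 58567 at D3, 28231 to 31462 at P23 and 31900 to 58636 at P25. Ccr2, the chemokine receptor of incoming monocytes, had 670, 700.5, 810.1 and 573.9 against 122.5, 147.7 and 129.3. The 4 depilated values lay close together and far above P29 (2.36 ± 0.38, adjusted p = 0.000127). Clec10a, a lectin of dermal macrophages, rose by 1.55 ± 0.38. Retnla, a secreted protein of macrophages activated by type 2 cytokines, had 10962 and 10890.4 at D8, 15838 and 13550.7 at D12, and 1468.5, 1587.1 and 1628.8 at P29. It was 8.11-fold higher (3.02 ± 0.51) and lay within the telogen range of 11430 to 28640 at D12 and just below it at D8, and its late and early differences between the cycles differed (2.55, adjusted p = 0.027).

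The counts of other leukocyte lists stand beside 10.8% of all genes that rose and 8.6% that fell. Of 9 T cell genes 0 passed, with 7 above 0 and 2 below it (median 0.56). At D8 2 of them rose, where 13.8% of all genes did, and at D12 0. Of 8 mast cell genes 0 passed (median -0.13). Of 24 interferon response genes 2 rose (median 0.12). Of the 2 measured genes of B and plasma cells Ighm, the heavy chain of IgM, rose by 1.28 ± 0.34, lost without P29 replicate 3. Without that array the difference was 0.95 (adjusted p = 0.0733).

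**Figure D3:**
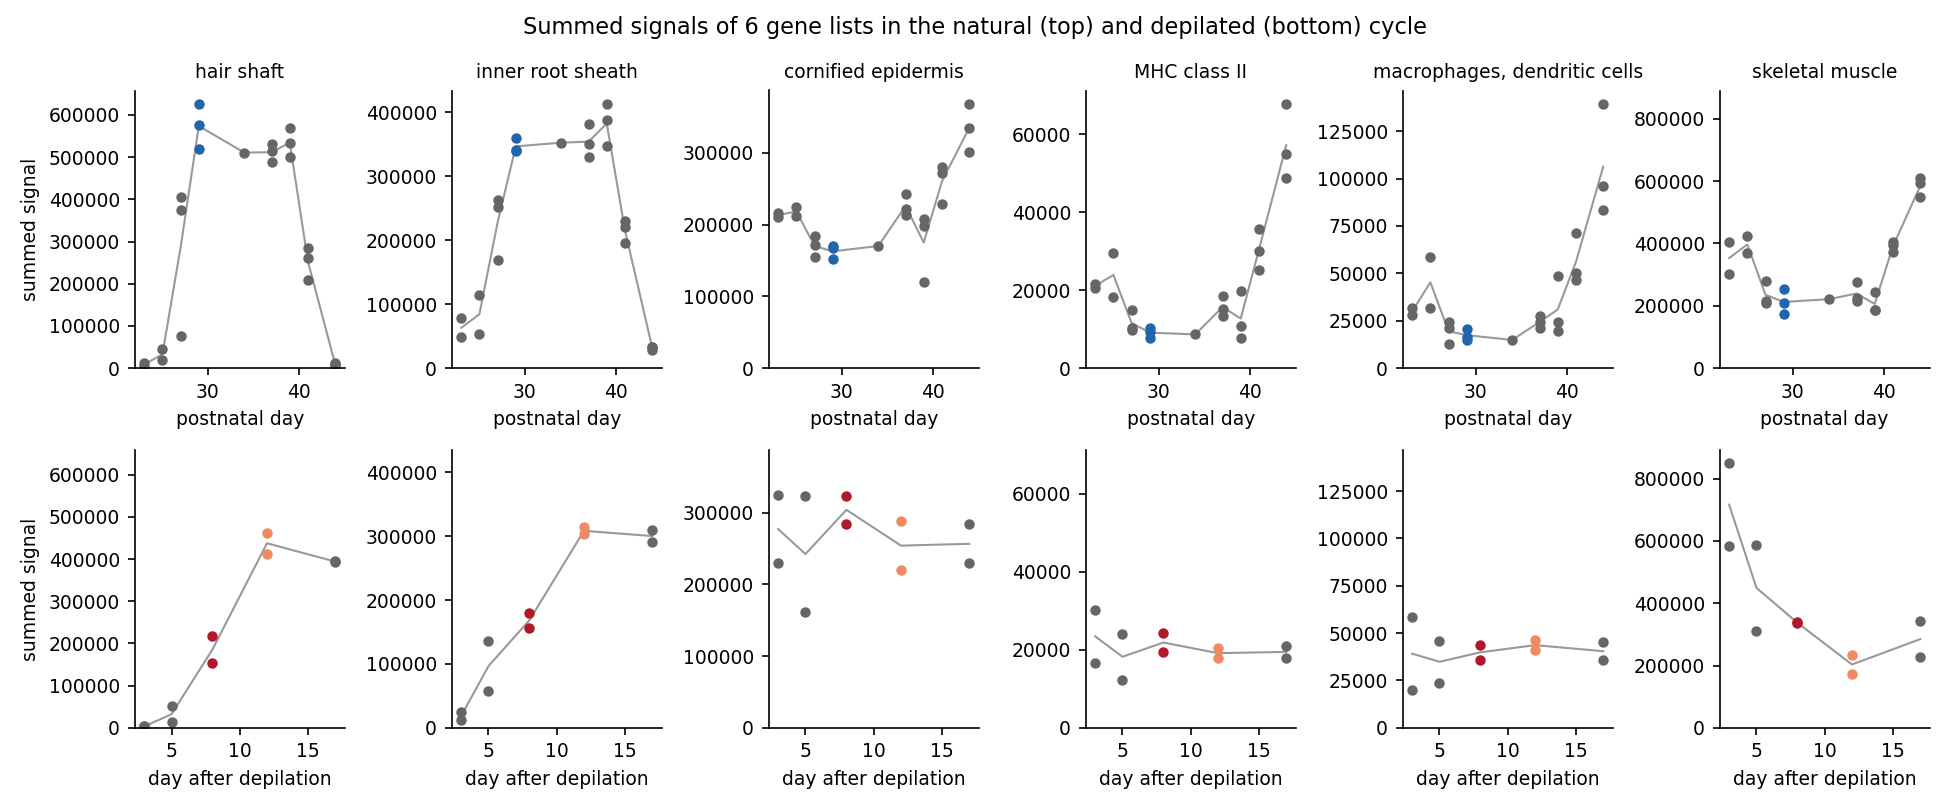
Summed signal of the genes of 6 lists on each array (1 dot an array, lines through the means) against postnatal day in the natural cycle (top) and day after depilation (bottom), with P29 in blue, D8 in red and D12 in orange. Cornified epidermis genes sum to 219500 to 323085 at D8 and D12 and to 151556 to 169803 at P29, and hair shaft genes stand higher at D12 than at D8 and below the P29 range on both days.

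Hair shaft genes were lower after depilation, with calls at D8 and none at D12. Between the days themselves 1 of 28 passed. All 28 measured genes, hair keratins and other shaft proteins, had a negative log2 difference (median -1.12), and 4 of them fell. The share of all genes that fell was 8.6%. At D8 the median was -1.85 and 11 fell, where 10.8% of all genes did, and at D12 it was -0.38 and 0 fell, where 2.7% of all genes did. Without any 1 array other than D12 replicate 1 or D8 replicate 1 only 2 fell. With P27 in place of P29 the median turned to 0.29 and 1 fell, so that the direction holds against P29 and not against the mean of P27. That mean joins unlike arrays, with shaft sums of 375363 and 406436 at replicates 1 and 2 and 77089 at replicate 3. Both D8 sums lay below those of replicates 1 and 2, and both D12 sums lay above all P27 arrays. The part of P27 replicate 3 in the values with P27 in place of P29, here and elsewhere, was not tested.

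Krt84, a type II hair keratin, had 192.9 and 100.3 at D8, 1607.6 and 756.2 at D12, and 1787.9, 2142.5 and 2388.2 at P29. Both days lay below the natural range, D8 by far more (-2.42 ± 0.55, limma adjusted p = 0.00257). D12 was above D8 by 2.99 (adjusted p = 0.0305), and with P27 in place of P29 the difference was 0.04. Dsc2, a desmosome cadherin, fell by 2.50 on the log2 scale, with 360.8 and 423.6, then 3229.4 and 1476.8, against 4457, 4841.1 and 6681.2. Its 2 probe sets fell together (-3.49 and -2.50).

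The keratin-associated proteins, which cross-link the hair keratins, are a family of 37 measured genes. All 37 had a negative difference (median -1.38, from -4.38 to -0.64), and 6 fell. At D8 19 fell (median -2.20) and at D12 0 (median -0.43). Of all genes 8.6% fell, 10.8% at D8 and 2.7% at D12. Krtap31-1 had 170 and 47.5 at D8, 1989.1 and 3968.1 at D12, and 14432.3, 8229.5 and 9550.1 at P29. It fell most of all genes, at -4.38 ± 0.86 (adjusted p = 0.000741), a 20.8-fold lower signal, and rose from D8 to D12 by 4.97 (adjusted p = 0.0237). At D12 alone it did not pass (-1.89, adjusted p = 0.272). Krtap5-1 had 992.5 and 691.1, then 7843.3 and 6792.8, against 12919.3, 10399 and 14264.7, with a difference of -2.34 ± 0.62 against P29 and of 0.14 with P27 in its place. Krtap31-1 and Krtap5-1 kept their calls without any 1 array, while Krtap5-4 (-2.35, adjusted p = 0.0316) lost its call without each of the 7. Without 1 array its adjusted p was 0.0528 to 0.0827. These genes lie in clusters of near copies, and signal may be shared among them.

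Promoters of both genes are printed, since the family moved together, with TATAAA in capitals (GRCm38.p6). Krtap31-1 lies at chr11:99907670-99907969 on the plus strand and Krtap5-1 at chr7:142297085-142297384 on the minus strand, and in both the box ends 24 bases before the start, as in Lce1d.
Krtap31-1: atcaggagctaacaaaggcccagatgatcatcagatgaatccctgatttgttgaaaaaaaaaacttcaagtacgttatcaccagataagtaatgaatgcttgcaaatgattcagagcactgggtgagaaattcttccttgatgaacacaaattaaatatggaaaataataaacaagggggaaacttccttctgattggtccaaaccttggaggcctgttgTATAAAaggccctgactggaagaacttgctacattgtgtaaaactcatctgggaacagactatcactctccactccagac
Krtap5-1: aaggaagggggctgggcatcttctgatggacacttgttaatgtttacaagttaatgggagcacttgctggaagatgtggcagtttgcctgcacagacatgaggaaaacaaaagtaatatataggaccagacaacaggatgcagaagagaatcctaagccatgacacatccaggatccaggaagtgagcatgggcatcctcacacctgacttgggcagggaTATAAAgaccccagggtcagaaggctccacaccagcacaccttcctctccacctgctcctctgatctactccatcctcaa
Of the 6 members that fell 4 held TATAAA in this window, 2 held TGANTCA and 2 CACGTG. A match of letters is a description and no measured site.

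The inner root sheath, which wraps the growing shaft, gave calls at D8 and none at D12, and 0 of its genes passed the test between the days. Of 21 genes 1 fell and 19 were negative (median -0.59), and at D8 9 fell (median -0.93) while at D12 0 did (median -0.19). The shares of all genes that fell were 8.6%, 10.8% at D8 and 2.7% at D12. The 1 sheath gene that fell was Padi1, a deiminase of sheath and epidermis (-1.21, adjusted p = 0.0254), a call lost without D8 replicate 2 (-1.13, adjusted p = 0.0705), D12 replicate 2 (-1.10, adjusted p = 0.0846), P29 replicate 2 (-1.05, adjusted p = 0.104) or P29 replicate 3 (-1.19, adjusted p = 0.0708). It had 720.5 and 570.8 at D8, 2754.6 and 2021.8 at D12, and 2191.6, 3597.6 and 2943.5 at P29, so that D12 overlapped P29, and with P27 in place of P29 the difference was 0.46. The sheath keratins Krt27 (-0.59) and Krt71 (-0.72), chosen like Padi1 after their values were seen, did not pass. Summed signals were 156874 to 180080 at D8, 302921 to 313736 at D12 and 339315 to 359684 at P29.

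Mid1 fell on both days. It encodes a microtubule-associated ubiquitin ligase and had 252.1 and 255.3 at D8, 598.3 and 188.4 at D12, and 949.4, 4288.6 and 5089.5 at P29. The 3 natural values spread widely, and the lowest was still above every depilated array (-3.23 ± 0.51, limma adjusted p = 0.000103). Erdr1, which lies near it at the end of the X chromosome, fell by 2.23 on the log2 scale, with 6268.7, 3373.5, 4643.5 and 8124.2 against 21485.5, 25333.5 and 28693.5. It was chosen after its values were seen, and 1 of its 2 probe sets passed.

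Muscle genes, from the thin sheet under the skin, passed at D8 and not at D12. Of 28 measured 6 rose (median 0.54), 16 rose at D8 (median 1.11) and 0 at D12 (median -0.03), and 2 passed the test between the days. Of all genes 10.8% rose, 13.8% at D8 and 2.77% at D12, and 2.04% passed between the days. The count of 6 muscle genes was 0 in a fit of only the 7 arrays and 1 without D12 replicate 2 or P29 replicate 2. It was 2 without either D8 array, and 14 when arrays were centred on their medians. The summed signal was 336272 to 338109 at D8, 172794 to 233705 at D12 and 175160 to 252767 at P29, so that D12 and P29 overlapped. Myoglobin (Mb), the oxygen store of muscle, had 6825.6 and 5687.5, then 2285.9 and 2209.5, against 1615.1, 1010.7 and 1168.8 (1.59 ± 0.32, adjusted p = 0.000805). At D12 alone it did not pass (0.86, adjusted p = 0.163). Cox6a2, the muscle form of a cytochrome oxidase subunit, rose by 1.19 ± 0.29 and fell from D8 to D12 by 1.57 on the log2 scale. It is 1 of the 7 of 28 respiratory chain genes that rose (median 0.10), where 10.8% of all genes did. This respiratory chain count was 0 in the fit of 7 arrays and 2 without P29 replicate 2. It was 3 without D8 replicate 1 and 4 without D12 replicate 2 or P29 replicate 3. How much muscle was cut with each skin was not tested.

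Of 10 sebaceous gland genes 3 rose (median 0.29), 5 at D8 and 0 at D12, while 0 passed the test between D12 and D8. The shares of all genes that rose were 10.8%, 13.8% at D8 and 2.77% at D12. Fa2h, which hydroxylates fatty acids, had 8196.4 and 6591.5, then 2676.1 and 4147.6, against 2047.2, 2039.6 and 1584.1. The groups stood apart (1.40 ± 0.26). The lipid droplet gene Cidea (1.40 ± 0.30) and the fatty alcohol gene Far2 (1.36 ± 0.36) also rose. Of 16 cholesterol synthesis genes 4 rose (median 0.16), led by squalene synthase, Fdft1 (0.68 ± 0.12), but 1 did without D8 replicate 1, D12 replicate 2 or P29 replicate 3 and 2 without P29 replicate 1.

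Dermal matrix genes passed about as often as genes in general. Of 33 measured 4 rose and 4 fell, where 10.8% and 8.6% of all genes did, with a median of -0.05 that turned to 0.11 (6 up, 3 down) when arrays were centred on their medians. With P27 in place of P29 16 fell and 0 rose, and without D12 replicate 2 or P29 replicate 1 3 fell and 2 rose. Col1a2, a chain of type I collagen, had 19498.9 and 17204.4 at D8, 17116.6 and 16204.8 at D12, and 39956.8, 29308.6 and 27580.3 at P29. There was no overlap of the groups, and all 3 probe sets fell (-0.87 ± 0.19, limma adjusted p = 0.00172). Sparc, a collagen-binding protein, fell by 1.14 on the log2 scale (adjusted p = 0.00396), and Dpt, dermatopontin, rose by 0.71 ± 0.16. At early anagen 30 of the 33 had fallen, where 25.7% of all genes did, with a median of -1.73.

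Growth genes that are imprinted or decline after birth gave more falls than rises, 4 and 1 of 18 (median -0.38). Of all genes 8.6% fell and 10.8% rose. With only probe sets above the array median on all 33 arrays, 2 of 13 fell and 1 rose. With P27 in place of P29 9 fell and 0 rose. Nnat, an imprinted membrane protein, had 273.4 and 148.5 at D8, 340.7 and 316.8 at D12, and 768.7, 621.4 and 1067.7 at P29. The ranges were separate (-1.63 ± 0.30, limma adjusted p = 0.000472). Plagl1, an imprinted zinc finger factor, fell by 0.59 and Igf2bp3, an RNA-binding protein of embryonic tissue, by 1.21 on the log2 scale. At early anagen 13 had fallen and 2 risen (median -1.21), where 25.7% and 17% of all genes had. Kcnq1ot1, an imprinted RNA that lies antisense to Kcnq1, was no member of the list and fell by 1.32 on the log2 scale (adjusted p = 4.25e-07). Its signals were 352.9, 387, 289.6 and 263.2 against 774.1, 868.2 and 754.1, all depilated arrays below the lowest natural array of the series (616.9). It was chosen after its values were seen, and 2 of its 4 probe sets passed.

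Vessel and steroid-response genes were lower in part. Of 17 endothelial genes 4 fell (median -0.21), where 8.6% of all genes did, among them the lymphatic receptor Flt4 (-1.16 ± 0.24) and the vascular guidance receptor Robo4 (-0.69 ± 0.19). The count was 2 without D12 replicate 1, D8 replicate 2 or P29 replicate 3, and 2 under median centring, where the median was -0.05. Of 16 glucocorticoid-induced genes 4 fell (median -0.22), but 0 did without P29 replicate 3, 1 without P29 replicate 2, and 2 without D8 replicate 2 or D12 replicate 2 or under centring. At early anagen 12 of those 16 had risen (median 0.93), where 17% of all genes had. Of 15 heat shock genes 3 fell and 1 rose (median -0.33), and 0 did either without P29 replicate 3.

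Clock genes gave no common direction. Of 12 clock genes driven through E boxes or D boxes 2 rose and 2 fell (median -0.21), and of 5 with ROR elements 1 rose. Over all genes 10.8% rose and 8.6% fell. Hlf, a PAR bZIP factor, had 452.2 and 546.5 at D8, 337.9 and 401.8 at D12, and 95.8, 173.7 and 202.2 at P29. The groups stood apart (1.51 ± 0.20, limma adjusted p = 1.38e-05), although a second probe set of the gene gave 0.21 ± 0.19. The other calls did not hold for every set of arrays. Per1 (-1 ± 0.28) was lost without P29 replicate 2 (-0.87, adjusted p = 0.0538) or P29 replicate 3 (-0.78, adjusted p = 0.0755), and its groups overlapped. Rora (0.62 ± 0.18) was lost without D12 replicate 2 (0.52, adjusted p = 0.0706) or P29 replicate 2 (0.58, adjusted p = 0.0539). Arntl, which encodes BMAL1 (0.64 ± 0.19), was lost without D12 replicate 2 (0.46, adjusted p = 0.101) or P29 replicate 2 (0.58, adjusted p = 0.0667). Per2 fell by 1.22 on the log2 scale (adjusted p = 0.0433), and its call was kept only without D12 replicate 1 (-1.43, adjusted p = 0.035) or P29 replicate 1 (-1.59, adjusted p = 0.0236), with values of -0.90 (adjusted p = 0.208) to -1.34 (adjusted p = 0.0545) without any other array. Without P29 replicate 2 or D12 replicate 2 the E-box and D-box list gave 1 and 2 calls in all, and without P29 replicate 3 2.

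The remaining clock genes did not pass. Dbp was at -0.20 ± 0.67, with 901.7 and 824.1 at D8, 1066.3 and 383.3 at D12, and 633.3, 1020 and 963.2 at P29, so that the groups overlapped. Nr1d1 was at 0.20 ± 0.51, Nr1d2 at -0.31 ± 0.40, Per3 at -0.31 ± 0.29, Tef at -0.49 ± 0.23, Ciart at -0.21 ± 0.29 and Cry2 at 0.05 ± 0.16. Bhlhe40 (0.44 ± 0.16, adjusted p = 0.0541), Clock (0.36 ± 0.15), Npas2 (0.71 ± 0.48), Cry1 (0.53 ± 0.34) and Nfil3 (-0.53 ± 0.25) did not pass either. All 7 arrays lay below telogen for Dbp, where P44 held 6522 to 7013. Skin was collected between noon and late afternoon according to the methods of the study, and the hour for each mouse is not given in the sources used here.

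Few cell division genes passed. Of 47 mitotic genes 3 rose and 0 fell (median 0.13), with 12 up at D8 (median 0.47) and 0 at D12 (median -0.24). The shares of all genes that rose were 10.8%, 13.8% at D8 and 2.77% at D12. Pttg1, which encodes securin, rose by 0.66 ± 0.17. The count was 1 without P29 replicate 3. Of 38 DNA replication genes 1 rose and 1 fell (median 0.01).

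The counts of the signalling lists stand beside 10.8% of all genes that rose and 8.6% that fell. Of 12 hedgehog genes 3 rose and 1 fell, led by the co-receptor Gas1 (1.08 ± 0.24). Of 33 WNT genes 3 rose and 2 fell, among them the receptor Fzd7 (0.66 ± 0.14). Of 30 BMP and TGF-beta genes 6 fell and 2 rose, which turned to 2 and 6 when arrays were centred on their medians. Smad6, an inhibitor of BMP signals, fell by 0.63 on the log2 scale. The counts of these 3 lists moved with single arrays. Without D12 replicate 2, 1 hedgehog gene rose, 1 WNT gene rose and 1 fell, and 3 BMP and TGF-beta genes fell. Without P29 replicate 3, 1 hedgehog and 2 WNT genes rose and 2 BMP and TGF-beta genes fell, while without D12 replicate 1 7 WNT genes rose. Of 28 FGF, EGF and IGF genes 4 rose, with the EGF receptor ligand Hbegf at 1.28 ± 0.26. Its signals were 515.2, 506.7, 519 and 831.6 against 193, 224.5 and 310.9, without overlap. Fgf7, a dermal growth factor for keratinocytes, rose by 0.78 ± 0.20 through D8 (1.33), with 545.3 and 667.2 there, 282.9 and 281.4 at D12, and 302.1, 212.7 and 215.2 at P29, and was at -0.21 with P27 in place of P29. Among 23 genes of wound and stress response 2 rose, Hbegf and the prostaglandin synthase Ptgs2 (1.16 ± 0.33). At early anagen 11 had risen and 2 fallen, where 17% and 25.7% of all genes had. The call of Ptgs2 was lost without D12 replicate 2 (0.93, adjusted p = 0.0669) or P29 replicate 1 (0.88, adjusted p = 0.0825).

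Pigment, stem cell and mesenchymal lists completed the follicle. Of 20 melanocyte genes 3 rose and 1 fell, where 10.8% and 8.6% of all genes did, though 13 lay below 0 and 7 above it (median -0.25). The 1 that fell was Mitf, the master factor of pigment cells (-0.81 ± 0.17), with 1585.9 and 1419.1 at D8, 2250.8 and 1894.4 at D12, and 2633.2, 3205.7 and 3513.7 at P29. There was no overlap of the groups. Rab27a, which carries melanosomes, rose by 0.77 ± 0.16, and Pax3 by 1.64 ± 0.40, with 1 natural array under the floor. Of 24 dermal papilla genes 2 rose and 1 fell, with Igfbp3 at 1.25 ± 0.32. Of 19 bulge stem cell genes 2 rose, of 13 outer root sheath genes 1 rose and 1 fell, of 20 transcription factors with hair phenotypes 1 rose and 2 fell (0 did either without D12 replicate 2), and of 9 Schwann cell genes 2 rose. Of 19 adipocyte genes 2 rose and 2 fell, with Cebpa at 0.75 ± 0.15 and Fabp4 at -0.45 ± 0.11. Of 14 fatty acid synthesis genes 2 rose and 1 fell, of 11 D cyclins and cell cycle inhibitors 1 rose and 1 fell, and of 3 red blood cell genes 0 passed. Of the 9 genes that the study used as markers of tissue composition, by their profiles in these samples, 5 rose, or 3 without D8 replicate 1, D12 replicate 2 or P29 replicate 3. Sex-linked genes followed the labels, since Eif2s3y was 2356.2 at P29 replicate 1, the male, and at most 19 on the other 6 arrays.

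**Figure D4:**
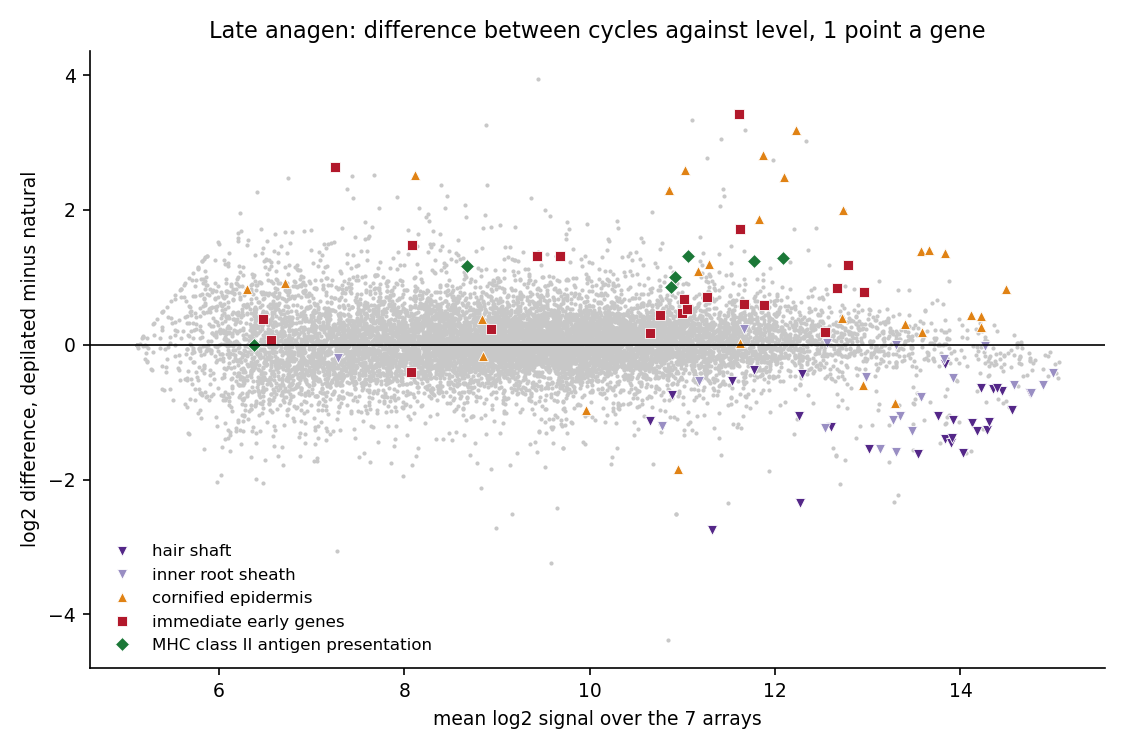
Log2 difference between depilated and natural late anagen against the mean log2 signal of the 7 arrays, 1 grey point for each of 12867 genes, with 5 lists coloured. Immediate early, MHC class II and cornified genes lie mostly above 0 (medians 0.64, 1.17 and 0.83) and hair shaft genes all below it (median -1.12), at bright as well as dim signals.

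Some genes lay outside everything seen in the natural cycle. Of the 12867 genes, 143 had all 4 depilated arrays above all 23 natural arrays (1.11%), and 118 of these passed the test. Another 131 had all 4 below (1.02%), and 113 passed. Of the immediate early genes 5 of 22 lay above all natural arrays. The genes named next were chosen after their values were seen. Socs3, which damps cytokine receptors, had 1737.7 and 2098.2 at D8, 923.1 and 1129.1 at D12, and 458.4, 438.1 and 445.3 at P29, where the highest natural array of the series held 846. The 3 natural late anagen values were almost equal, and all 3 probe sets rose (1.64 ± 0.20, limma adjusted p = 8.04e-06). Slurp1, a secreted epidermal peptide, rose by 1.92 ± 0.43, Gprin3 by 2.32 ± 0.39 and Lgals7, a lectin of stratified epithelia, by 0.94 ± 0.22. Sema5a, a guidance protein, rose by 2.37 ± 0.32 on 1 probe set, while its other probe set gave 0.24 ± 0.19. Cox7c, a subunit of cytochrome oxidase, had 136.1, 122.2, 145.5 and 145.9 against 328.9, 370.8 and 422.9 and fell on both probe sets (-1.44 ± 0.18). Adcy1, an adenylate cyclase, fell by 1.41 on the log2 scale.

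The difference between the cycles was also taken at early anagen (D3 against P23 and P25), mid anagen (D5 against P27) and early catagen (D17 against P37 and P39), which share no array with D8, D12 and P29. There 5495 genes (42.7%), 2734 genes (21.2%) and 1204 genes (9.36%) passed. At mid anagen 11.1% of genes were higher and 10.1% lower (9.18% and 14.5% of probe sets), and at early catagen 4.94% and 4.41% (5.5% and 9.82% of probe sets). Of the 2500 genes called at late anagen 1188 were called in the same direction at early anagen, 47.5% of the late and 21.6% of the early list, and 148 in the opposite one. At mid anagen 1124 were, 45% and 41.1% of the lists, with 10 opposite. At early catagen 839 were, 33.6% and 69.7%, with 1 opposite. Genes called only at late anagen of the 4 phases numbered 620, and 352 were called one way at all 4, 174 up and 178 down. Since D12 replicate 2 resembled D17 replicate 1, the early catagen share bears on that pair. Without both arrays the catagen comparison called 1275 probe sets, where it had called 4133.

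Of the genes called one way at all 4 phases, 5 had the largest smallest difference. Slc16a14, a carrier of the monocarboxylate transporter family, was at 3.34, 2.69, 2.47 and 2.04 at early, mid and late anagen and early catagen. At late anagen it had 243.6, 254, 129.3 and 304.8 against 53.8, 15.4 and 25.8, with 2 natural arrays under the floor. Stfa3 was at 3.15, 5.51, 3.95 and 2.45, Lce1f at 2.62, 2.76, 3.19 and 2.34, Lce1d at 2.56, 2.62, 3.05 and 2.09, and Mid1 at -3.04, -3.60, -3.23 and -2.06.

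Between late and early anagen the difference between the cycles itself changed for 4925 probe sets (18.2%) and 2528 genes (19.6%), with 13.5% of genes higher and 6.18% lower (10.6% and 7.66% of probe sets), although without D3 replicate 1 only 1954 probe sets passed. Glucocorticoid-induced genes passed this test in 11 of 16 cases, dermal matrix genes in 26 of 33, imprinted and growth genes in 9 of 18, dermal papilla genes in 12 of 24 and immediate early genes in 8 of 22. Nnat had been at 0.88 at early anagen and was at -1.63 at late anagen (late minus early -2.52, adjusted p = 0.000969). The serpin gene Serpinb12 went from -2.35 to 2.50, with 623.9 and 410.8 at D8, 210 and 325.3 at D12, and 71.9, 67.7 and 54.7 at P29. Fos did not pass this test, at 3.24 early and 3.42 late (0.18, adjusted p = 0.882).

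Several genes had probe sets that disagreed, which bears on what a gene's level means here. Of 1099 genes with at least 2 called probe sets, 308 had them in both directions (28%). The share was 28.8% at early catagen between the cycles, 22.9% at early anagen and 9.67% at mid anagen. Within the natural cycle it was 13.1% between early and late anagen, 7.54% between telogen and late anagen, 6.41% between mid catagen and late anagen and 2.99% between mid and late anagen, and it was 0 of 67 genes between D12 and D8. Probe sets without a gene symbol, 3103 of those tested, were lower in 29.6% of cases and higher in 8.09%, and those with 1 symbol in 14.1% and 10.8%.

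Malat1, a nuclear noncoding RNA, showed both directions at full size. One probe set had 6650.8, 8327.2, 11087.9 and 9363.5 against 106.5, 123.2 and 639.2 (5.42 ± 0.81), and another had 1059.5, 1438.5, 2626.3 and 2025.6 against 5193.8, 4779.1 and 5794.3 (-1.63 ± 0.20). In each the groups did not overlap, and over the 7 probe sets of the gene the values ran from 5.42 to -1.80. Hspa8, a chaperone of every cell, had 1 probe set at 153.2, 136.8, 117.8 and 98.9 against 896.3, 810.1 and 720.5 (-2.69 ± 0.22), and its other 3 lay between -0.04 and -0.46. Of 6 probe sets of the splicing factor Srsf3 only 1 passed (-1.52 ± 0.14). Gas5, a host of small nucleolar RNAs, was at -1.68, -1.17, -0.30 and -0.15, and Hnrnpu, an RNA-binding protein, at 0.63 on 1 probe set and at -1.09 and -1.33 on others. What these probe sets share was not tested. By contrast, the rises of Lce1f, H2-Aa and Socs3 and the falls of Dsc2 and Col1a2 held on all their probe sets.

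**Figure D5:**
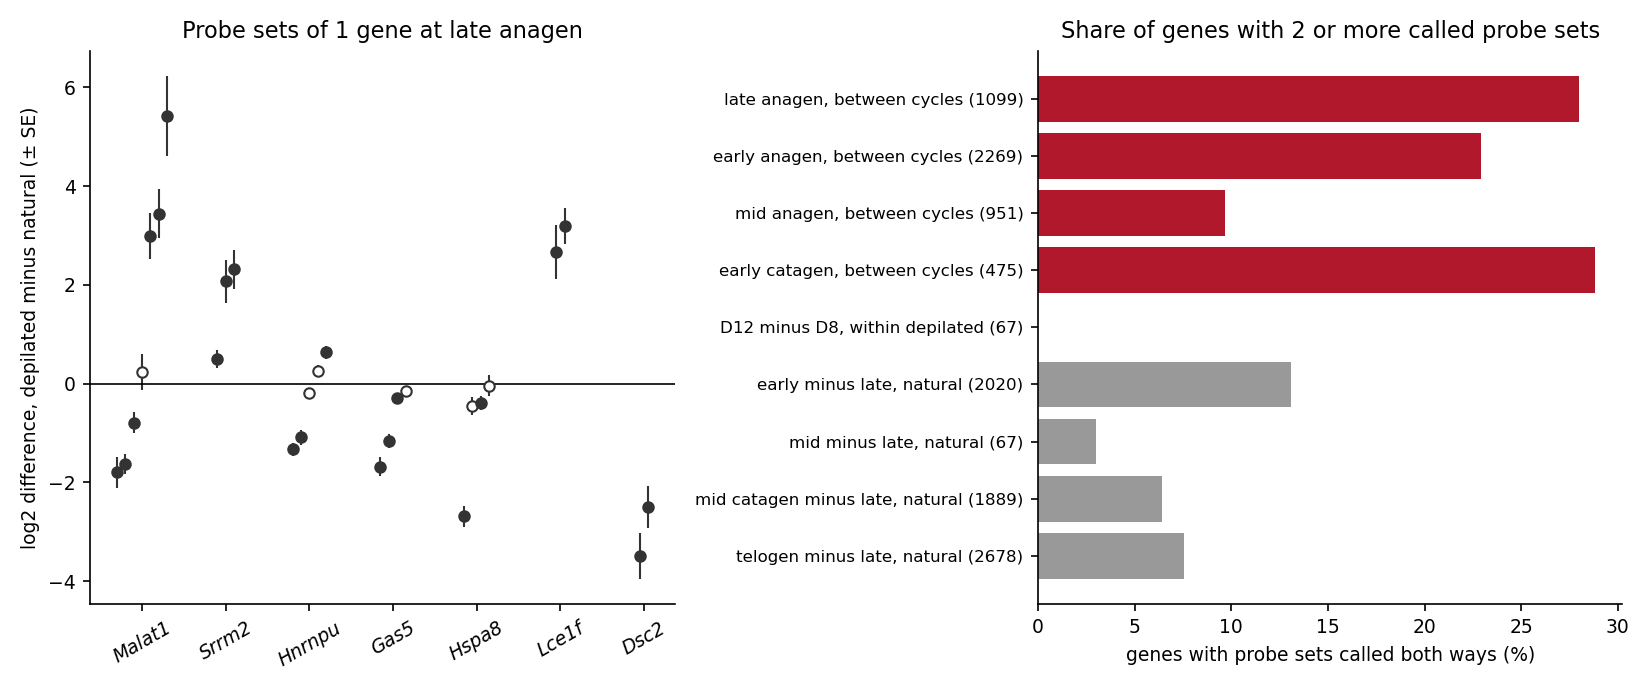
Left, log2 difference with its standard error for each probe set of 7 genes, filled where the adjusted p was under 0.05. Right, share of genes with at least 2 called probe sets that had them in both directions, which was 28% for depilated against natural late anagen, 0% for D12 against D8 and 2.99% for natural mid against late anagen.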

How the data were processed

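RNA of dorsal skin from 1 mouse was measured on each array (Affymetrix, Mouse Genome 430, version 2). The deposited values were linear intensity signals computed by the authors with MAS 5.0 and were taken as deposited. The trimmed means of the 7 arrays were 497.6 to 498.4, and which scaling gave them is not stated in the sources used here. They are array brightness, so that no read depth applies, and 1.15% to 1.70% of the kept signals of the 7 arrays lay under the floor.

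A floor of 34.6 (percentile 25 over every deposited value) replaced lower signals before the log2 was taken. Of 45037 probe sets, 26988 exceeded the array median on at least 3 of the 33 arrays and were kept. Gene names came from the platform annotation, with 34945 probe sets holding 1 symbol (77.6%), 932 several and 9160 none. Each of 12867 genes was represented by its kept probe set with the highest mean log2 signal.

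Samples were grouped by the day in their titles. A linear model with 1 mean for each of 14 time points was fitted to all 33 arrays with limma 3.58.1 under R 4.3.3, using lmFit and eBayes, which leaves 19 residual degrees of freedom, with 2.94 added by eBayes. The comparison was the mean of D8 and D12 minus P29, and p-values were adjusted by Benjamini-Hochberg across the 26988 kept probe sets, at a threshold of 0.05. The methods of the study compared phases of the natural cycle by a one-way test of each gene at 0.01, on values transformed by a noise model. The alternative called the methods' t-test here took that test to the floored log2 signals of the 7 arrays, so that its input differs from the study's. The fit was first tested on simulated data.

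The 41 gene lists had 870 entries. Kept genes accounted for 758 of the entries and numbered 701 after repeats were removed. The groups, lists and tests were chosen with earlier results of these data known. Named genes were the 10 largest rises and 10 largest falls without overlap, the 3 called members with the smallest p of each list with 3 or more calls, all clock, sex-linked and tissue composition genes, and the leading genes between days and phases. Further genes, among them Egr1, Atf3, Nr4a1, Ccn1, Jund, Klf4, Alox12b, Calm4, Hrnr, Tgm3, H2-DMa, Ighm and Ptgs2, were chosen after their values were seen. Promoter sequences came from RefSeq (GRCm38.p6). Same-numbered arrays of the groups deviated with correlations of -0.10 to 0.05, so that the replicate numbers were not taken to pair mice. Other floors, filters, scalings, sample sets, sex as a covariate, a replicate block and each array left out were tried. Figures were drawn with matplotlib 3.10.9 and Python 3.11.15.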

Additional observations from a re-analysis of the deposited data

Results flagged for a closer look

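Among the 4 depilated arrays a single value lay far from the other 3 in 5 of 171 named genes. Named genes with a depilated signal under the floor could not be among the 5. Chance gives about 1 in 20 where all values come from 1 group, but these arrays come from D8 and D12, so that this rate does not apply. The 5 were Hbegf at D12 replicate 2 (831.6), Ciart at D12 replicate 2 (135.2), Stat3 at D12 replicate 1 (2225.2), Lce1m at D12 replicate 1 (2570.5) and Vim at D8 replicate 1 (9080.3).

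The difference from P29 was not the same at D8 and at D12 for 650 probe sets (limma test of D12 minus D8). Of the named genes 18 were among them. Those higher at D12, with their log2 differences, were Krtap31-1 (4.97), Dsc2 (2.48), Krt84 (2.99), Krtap5-4 (3.90), Krtap5-1 (3.14), Itgb1 (0.50), Smad7 (0.85), Spink12 (4.05) and Tm4sf4 (3.72), and those lower were Stfa3 (-3.55), Lce1d (-1.41), Des (-1.55), Fgf7 (-1.10), Flt4 (-1.46), Cox6a2 (-1.57), Dmbt1 (-3.62), Col11a1 (-1.74) and Lce1h (-2.33). Both D8 arrays of Spink12 and both D12 arrays of Dmbt1 lay under the floor of 34.6, so that their sizes are lower bounds, and 1 D8 array of Tm4sf4 did. Spink12, a protease inhibitor gene, had 16.5 and 19.9 at D8, 421.9 and 782.9 at D12, and 66.3, 158.7 and 143.3 at P29, where both D8 arrays lay below and both D12 arrays above the natural range.

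The difference between the cycles was not the same at late and at early anagen for 4925 probe sets (limma interaction). Of the named genes 40 were among them. Positive values, late minus early, were those of Retnla (2.55), Dhcr7 (0.97), Cyp51 (1.00), Plagl1 (0.82), H2-Aa (1.11), H2-Eb1 (1.38), Cd74 (1.58), Fzd7 (1.10), Fzd3 (1.06), Flg (2.59), Dpt (0.76), Smo (1.11), Cdon (1.44), Elovl6 (1.40), Bambi (1.63), Vim (0.85), Serpinb12 (4.85), Col11a1 (4.21), Pappa (3.62), Klk5 (1.77), Lyz2 (2.03) and Ighm (2.53). Negative values were those of Krtap31-1 (-4.12), Crisp3 (-3.07), Per1 (-1.92), Nnat (-2.52), Fabp4 (-1.12), Hbegf (-1.48), Sox17 (-1.28), Errfi1 (-1.88), Per2 (-2.09), Dmbt1 (-4.36), Chac1 (-3.84), Jund (-0.84), Ier3 (-0.97), Nr4a1 (-1.76), Abca12 (-1.95), Tcap (-2.03), Ptgs2 (-1.94) and Srrm2 (-1.77). For Crisp3 2 of the depilated arrays at late anagen and both D3 arrays lay under the floor, and for Dmbt1 both D12 and 2 of the P29 arrays did, so that the sizes of both depend on it.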

How the results depend on the processing

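The count of 7141 probe sets at late anagen stayed within 1.5 times under other floors, filters and scalings and with sex as a covariate. It was 3593 in a fit of only the 7 arrays, 1016 by the methods' t-test after Benjamini-Hochberg adjustment and 3155 at the threshold of the methods, 2289 with 1 probe set per gene, where 12867 were tested, 2570 with the mean over all probe sets of a gene, and 2708 with D12 alone. Of 701 listed genes 145 passed, 102 higher and 43 lower, where 19.4% of all genes passed, 10.8% higher and 8.6% lower. In the fit of 7 arrays 88 listed genes passed, and 48 with D12 alone. Without D12 replicate 2 and D17 replicate 1, an alternative chosen after seeing the data, 91 did, and the counts were 979 for D12 against P29 and 1275 for the cycles at early catagen. With the replicate block, although the numbers were not found to pair the mice, 3237 probe sets and 93 listed genes passed, and 19 of 28 hair shaft genes fell where 4 had. The causes were not tested. Without any 1 array the count was 5062 to 6523 at late anagen, 83 to 137 for listed genes, 3942 to 6887 for D8 against P29, 1032 to 2012 for D12 against P29, 38 to 348 for D12 against D8 and 1954 to 5062 for late minus early anagen.

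For genes named by rule or afterwards that passed, 2899 values under 20 other settings gave 2368 calls on the same side, 508 that no longer passed and 23 that turned. Leaving out 1 array gave 803 and 233 of 1036, and 0 turned. With P27 in place of P29 the values were 0.04 for Krt84, 0.26 for Krtap5-4, 0.14 for Krtap5-1, 0 for Fabp4, -0.21 for Fgf7, -0.04 for Cdon, 0.34 for Hephl1, 0.04 for Bmp6, -0.12 for Kif22, -0.16 for Cdca8, 0.21 for Hspa5, 0.02 for Map3k6, 0.41 for Smad7, 0.01 for Ctnnb1, -0.81 for Col11a1, 0.57 for Chac1, -0.54 for Pappa, 0.49 for Tgm3, 0.25 for Padi4 and 0.46 for Padi1. Col11a1 was at -0.01 with P27 and P29 together and at -0.08 with D12 alone, Fzd7 at -0.10 as the mean over its probe sets, and Spink12, which had not passed, at -1.73 with D8 alone, where both arrays lay under the floor. Of the BMP and TGF-beta list 2 genes fell under median centring, with 6 higher.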

Other observations

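Xist, the RNA of the inactive X chromosome, did not pass on any of its 3 probe sets, yet these disagreed among the female mice. One probe set had 6656, 8496.2, 5114.9 and 6725.2 on the 4 depilated arrays and 1103.2 and 2196.5 on the 2 female natural arrays. Another had 8568.1, 9073.9, 8979.1 and 10606 after depilation and 13852.5 and 12913.2 in the same natural females. The first was thus higher on every depilated array than on either natural female, and the second lower. The male, P29 replicate 1, had 15.2 and 123.3.

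Neat1, a nuclear noncoding RNA, fell on both of its probe sets (-0.85 ± 0.12 and -1.04 ± 0.28), the brighter of them at 7981.6, 8557.5, 12357.8 and 12603.5 against 18647.8, 17474.9 and 18647.2. Srrm2, which encodes a protein of nuclear speckles, rose on all 3 probe sets (2.31 ± 0.39, 2.07 ± 0.43 and 0.50 ± 0.18). Ncl, nucleolin, did not pass on any of 4, which ran from -0.33 to 0.59. These genes were chosen after their values were seen.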
